A study of Mus musculus with 237 samples.

Results

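Single cells of the cap mesenchyme were compared between Pax2 mutant and wild-type mouse kidneys at E13.5, a day of embryonic development. The comparison holds 47 of the 237 cells of the series: 29 cells labelled Pax2 mutant and 18 labelled wild type, chosen by their titles, all of pool 3. A single E13.5 wild-type cell of pool 4 was left out. Both groups were of mixed strain. Kidneys were dissociated with protease, cells of interest were enriched by fluorescence-activated sorting, and single cells were captured on a Fluidigm C1, a microfluidic chip that makes a cDNA library from each captured cell. The mutant cells were labelled cap mesenchyme, whereas the wild-type cells were labelled cap mesenchyme and its derived kidney cells. The labels do not say which Pax2 allele was used, whether 1 or both copies were altered, which marker was sorted on, or from how many embryos the cells came. Each group was therefore treated as 1 sample. No test between groups was possible, and every SD below is a spread between cells.

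The cap mesenchyme surrounds the tips of the branching ureteric bud and holds the progenitors of the nephron. Its cells renew themselves or turn into epithelium under the control of transcription factors that include Six2, Sall1, Eya1, Osr1 and Wt1. Stromal progenitors marked by Foxd1 lie just outside the cap and give rise to interstitium and mural cells. Pax2, a paired-box transcription factor, is made both in the cap and in the ureteric bud and is required for kidney formation.

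Values are RPKM (reads per kilobase of transcript, scaled to sequencing depth), averaged as log2(RPKM + 1). A cell counts as having a gene, or the gene as detected there, from 1 RPKM upwards. Mutant cells held fewer detected genes. Their number ran from 1849 to 5858 (median 4560) in mutant cells and from 4355 to 6661 (median 5566) in cap cells, and 14 of 29 mutant cells lay below every cap cell. Most results are therefore given also for the 15 mutant and 14 cap cells in the range shared by both groups, 4355 to 5858 genes. Gene number was matched there in range only, with medians of 4894 in mutant and 5449.5 in cap cells. The mitochondrial pseudogene LOC100503946 reached 20000 RPKM in 8 mutant cells and 1 cap cell. Xist without a Y-linked transcript was found in 27 mutant cells, and Y-linked transcripts without Xist in 17 cap cells, so genotype and sex cannot be told apart here. The titles also give the groups different dates.

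Several cells stood apart from their label. Cap cells 83 and 84 held the stromal collagens Col1a1 and Col3a1 together. Cap cell 95 held 8 of 10 endothelial markers and none of the 14 progenitor genes. Mutant cells 51 and 56 held 5 and 7 of 12 ureteric epithelial markers, and cap cell 88 held 3 of these beside 7 progenitor genes. Differences without these cells are given where they matter.

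Tested genes were the 11449 that reached 1 RPKM in at least 10% of mutant or of cap cells. Their median difference (mutant minus cap) was -0.45 log2 units. In cells of the shared range it was -0.11. By 1 log2 unit or more, 164 genes were higher in mutant cells (1.43% of those tested) and 3170 were lower (27.7%). In the shared range 842 were higher (7.35%) and 1370 lower (12%). The shift grew with the level of a gene: the median difference was -0.12 in the lowest of 4 equal bins of mean level and -1.28 in the highest, against -0.03 and -0.24 in the shared range. A difference near -1 in a highly expressed gene is therefore a common value here in all cells, and the shared-range value is printed beside it.

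Pax2 transcripts were present in mutant cells. On mm10 the gene lies on chromosome 19 from 44757394 to 44837869 (gene ID 18504). Its level ran from 0 to 25.9 RPKM in mutant cells, with a median of 1.62. The cap cells ran from 0 to 46.8, with a median of 12.6. The highest mutant cells lay among the cap cells, and most of the low cells were mutant. Detection was 17 of 29 mutant cells (58.6%, exact 95% Clopper-Pearson interval 38.9 to 76.5, which covers counting error only) and 15 of 18 cap cells (83.3%, 58.6 to 96.4). The mean log2 level was 1.93 ± 1.88 (SD between 29 cells) against 3.26 ± 1.76 (SD between 18 cells). The difference was -1.33 log2 units, -0.93 in the shared range (10 of 15 against 11 of 14 cells) and -1.71 without the cells with ureteric or endothelial markers. A value per gene does not show whether a transcript is intact. The mutant cells with 5 and 7 ureteric markers had Pax2 at 20.7 and 8.75 RPKM and no Sall1.

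**Figure D1:**
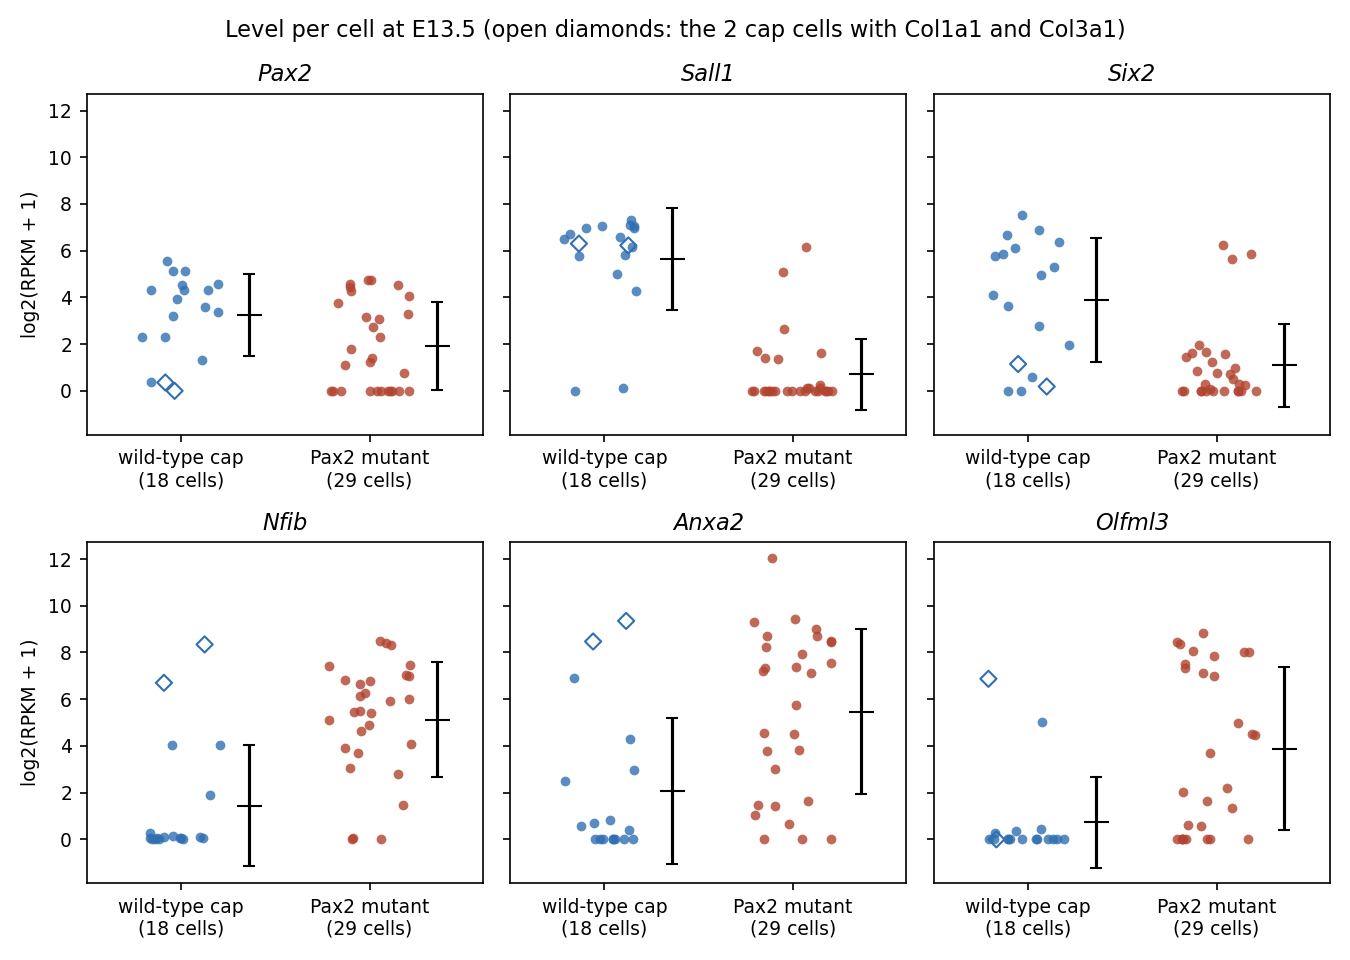
Level of 6 genes in each E13.5 cell as log2(RPKM + 1), for 18 wild-type cap and 29 Pax2 mutant cells. Points are cells, bars are the mean and SD between cells, and open diamonds are cap cells 83 and 84. Pax2 overlaps broadly between the groups, Sall1 is at 1 RPKM or more in 16 of 18 cap and 7 of 29 mutant cells, and Nfib in 5 of 18 and 26 of 29.

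Sall1 had the most negative difference of the 11449 tested genes. It encodes a zinc-finger transcription factor that keeps nephron progenitors in an undifferentiated state and is mutated in Townes-Brocks syndrome. Sall1 (gene ID 58198, chromosome 8, 89027243 to 89044162) had a median of 0 RPKM in mutant cells and 83.2 in cap cells, with highest values of 69.5 and 157. Only mutant cells 65 and 73 exceeded 10 RPKM, at 69.5 and 32.7, and the other 5 detected cells were at 5.28 or less. Among cap cells only cells 80 and 95 were below 1 RPKM. The mean log2 level was 0.71 ± 1.53 (SD between cells) in mutant and 5.66 ± 2.18 in cap cells. The difference was -4.95 log2 units, and -4.94 in the shared range. Removing cap cells 83 and 84, which held Sall1 at 73.8 and 77.997 RPKM, gave -4.88.

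Six2, the homeobox factor that maintains self-renewal in the cap, was lower but kept a few high mutant cells. Six2 (gene ID 20472, chromosome 17, 85684268 to 85688254) had a median of 0.242 RPKM in mutant cells and 22.96 in cap cells. Mutant cells 69, 75 and 76 held 73.8, 56.7 and 49.3 RPKM, within the range of cap cells, and the other mutant cells were at 2.92 or less. It was detected in 9 of 29 mutant cells (31.03%, 15.3 to 50.8) and 14 of 18 cap cells (77.8%, 52.4 to 93.6), and differed by -2.77 log2 units (-2.40 in the shared range). In 10 of 17 mutant cells with Pax2 there was no Six2, against 2 of 15 cap cells.

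The progenitor list as a whole lay below the bulk of genes. Of its 13 tested genes 9 were lower by 1 log2 unit and none was higher, with a median of -1.92 against -0.45 for all tested genes. In the shared range 8 were lower, with a median of -1.46 against -0.11. The share of all tested genes that were lower was 27.7% in all cells and 12% in the shared range. The members were chosen as known cap genes, several of them with earlier results of these data in view, so the direction is not independent evidence.

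Its other members differed in how they were lower. Eya1, a phosphatase and coactivator that partners Six2, had medians of 0.507 and 49.6 RPKM in mutant and cap cells and differed by -2.72 (-2.58), where the value in brackets is that of the shared range. The highest Eya1 values, 566 and 232 RPKM, were in mutant cells 62 and 78, which held 3603 and 1889 genes and lay outside the shared range. Cell 62 was also high in LOC100503946. Within the shared range no mutant cell exceeded 37.2 RPKM of Eya1, against 217 in the highest cap cell. Crym, a thyroid hormone and ketimine-binding protein, reached 1 RPKM in 3 of 29 mutant but 11 of 18 cap cells and differed by -3.16 (-3.24). Wt1, the Wilms tumour factor, was still detected in 17 of 29 mutant cells and differed by -2.45 (-2.27). Gdnf, the ligand from the cap that draws the ureteric bud, was detected in 4 of 29 and 10 of 18 cells and differed by -2.04 (-2.12). Osr1, the factor of the earliest kidney mesenchyme, differed by -1.92 (-1.46). Cited1, a marker of the least committed progenitors, was rare in both groups, in 2 mutant and 3 cap cells.

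Genes of the Pax and Hox network were mixed. Of 14 tested members 5 were lower by 1 log2 unit, with a median of -0.69, against 27.7% lower and a median of -0.45 for all tested genes. In the shared range 4 were lower and 1 higher, with a median of -0.30, against 12% lower, 7.35% higher and a median of -0.11. Relative to genes of the same mean level, the list median was 0.0005 in all cells and -0.09 in the shared range. Pax8, the paralogue of Pax2, was detected in 1 of 29 mutant cells and 7 of 18 cap cells and differed by -2.17 (-1.82). Hoxc10 was detected in 14 of 29 and 17 of 18 cells and differed by -2.78 (-2.45). The posterior Hox genes Hoxd10 and Hoxd11, by contrast, had differences of -0.49 (0.27) and -0.03 (0.42). Foxc1, a forkhead factor of kidney mesenchyme, differed by -1.51 (-1.10). In the list of committing nephron genes, Cdh4, the adhesion protein R-cadherin, reached 1 RPKM in no mutant cell but in 8 of 18 cap cells, and 0 of 29 allows a share of up to 10.3%, taken as 3 cells of 29 and not from the exact interval. Cxcr4, a chemokine receptor, was detected in 2 and 7 cells. Wnt4, the signal that starts epithelial conversion, differed by 0.02 (-0.75).

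Apart from Xist, Nfib had the largest difference towards mutant cells. It encodes a nuclear factor I protein, a family of DNA-binding factors linked to differentiation in several organs. Nfib (gene ID 18028, chromosome 4, 82290173 to 82505308) had a median of 43.5 RPKM in mutant cells and 0.0568 in cap cells, with highest values of 364 and 324. All but 3 mutant cells held it, and the high cap values were those of cells 83 and 84, at 324 and 103 RPKM, with no other cap cell above 15.7. It was detected in 26 of 29 mutant cells (89.7%, 72.6 to 97.8) and 5 of 18 cap cells (27.8%, 9.69 to 53.5). The mean log2 level was 5.13 ± 2.45 (SD between cells) against 1.44 ± 2.59. The difference was 3.69 log2 units, 3.19 in the shared range and 4.45 without cap cells 83 and 84. Of the other family members, Nfia was higher by 1.87 (1.56), Nfic by 0.71 (0.45), and Nfix was detected in no cell of either group.

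Anxa2 encodes annexin A2, a calcium-dependent membrane-binding protein. Anxa2 (gene ID 12306, chromosome 9, 69453683 to 69491785) had medians of 138 RPKM in mutant and 0.396 in cap cells. Its highest value, 4287 RPKM, was in mutant cell 53, which held 3210 genes, was high in LOC100503946 and lay outside the shared range. The next mutant value was 698 in cell 58, and cap cells 84 and 83 had 652 and 354. Anxa2 reached 1 RPKM in 25 of 29 mutant cells and 6 of 18 cap cells. It differed by 3.42 (4.07), or 4.27 without these cap cells. Among the 11 tested annexin and S100 genes, Anxa2 alone was higher by 1 log2 unit in all cells and 1 was lower. The list median was 0.44. Of all tested genes 1.43% were higher and 27.7% lower. In the shared range 7.35% of all tested genes were higher and 12% lower. Of the 11 list genes 6 were higher there and none lower, with a median of 1.13. Besides Anxa2 these were Anxa5 (0.68 in all cells, 2.49 in the shared range), Anxa6 (0.85, 1.35), S100a6 (0.91, 1.89), S100a10, the partner of annexin A2 (0.44, 1.13), and S100a11 (0.56, 2.18). Without the cells high in LOC100503946 the count was also 6, with a median of 1.32.

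Olfml3, a secreted olfactomedin-like protein, was at 0 to 459 RPKM in mutant cells with a median of 11.98, and at 0 to 116 in cap cells with a median of 0. Only cap cells 83 and 80 had it above 1 RPKM, at 116 and 31.6. It differed by 3.16, and by 4.85 in the shared range, where 13 of 15 mutant cells and 1 of 14 cap cells had it. Maged2, an X-linked melanoma antigen family gene, was found in all 29 mutant cells and 14 cap cells and differed by 2.72 (4.24). The median difference was -0.42 over the 388 tested genes of the X chromosome and -0.45 over autosomal genes. A chromosome median does not speak to a single gene, and whether the Maged2 difference goes with sex was not tested. Lpar1, a receptor for lysophosphatidic acid, differed by 2.66 (3.06). No cap cell exceeded 9.95 RPKM of Lpar1, against 464 in the highest mutant cell.

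Zfp536, a zinc-finger repressor gene, was the only 1 of the 12 leading positive genes that no cap cell reached at 1 RPKM. It was detected in 17 of 29 mutant cells (58.6%, 38.9 to 76.5) with a highest value of 441 RPKM, and 0 of 18 cap cells allows a share of up to 16.7%, taken as 3 cells of 18. The difference was 2.54 (2.48). Dnm3os, a noncoding RNA read from the strand opposite Dnm3 and host of microRNAs, differed by 2.51 (1.56). Whether reads were counted by strand is not given in the sources used here, so reads of Dnm3os and Dnm3 cannot be told apart. Efna5, a membrane-bound ephrin ligand, differed by 2.18 (2.27), and Sox9, a factor of epithelial and cartilage progenitors, by 2.10 (2.86). Dhrs3, a retinaldehyde reductase, was detected in 24 of 29 and 7 of 18 cells and differed by 2.16 (2.77), yet its highest 2 values, 2608 and 2565 RPKM, were in cap cells. The log2 ratio of group mean RPKM of Dhrs3 was therefore -0.52.

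Not all leading positive genes kept their size in the shared range. BE692007, Klk14, Nkx2-1 and Pigr had differences of 2.37, 2.23, 2.12 and 2.08 in all cells and 0.58, 0.61, 0.56 and 0.39 in the shared range. They include a thyroid and lung transcription factor (Nkx2-1), a kallikrein protease (Klk14) and an epithelial immunoglobulin receptor (Pigr), and they were among the genes that weighed most on the low-gene-number side of the first principal component of the 47 cells. Fat4, a protocadherin that stroma uses to signal to the cap, kept its difference at 2.04 (1.95), detected in 21 of 29 and 4 of 18 cells. Of the 12 leading positive genes 5 were also among the 12 leading genes of the shared range. Those that entered there included Tmsb4x, thymosin beta 4, at 3.28 (1.95 in all cells), and Emp3, an epithelial membrane protein, at 3.31 (1.05). Tmsb4x has processed copies elsewhere in the genome, so its reads are uncertain.

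**Figure D2:**
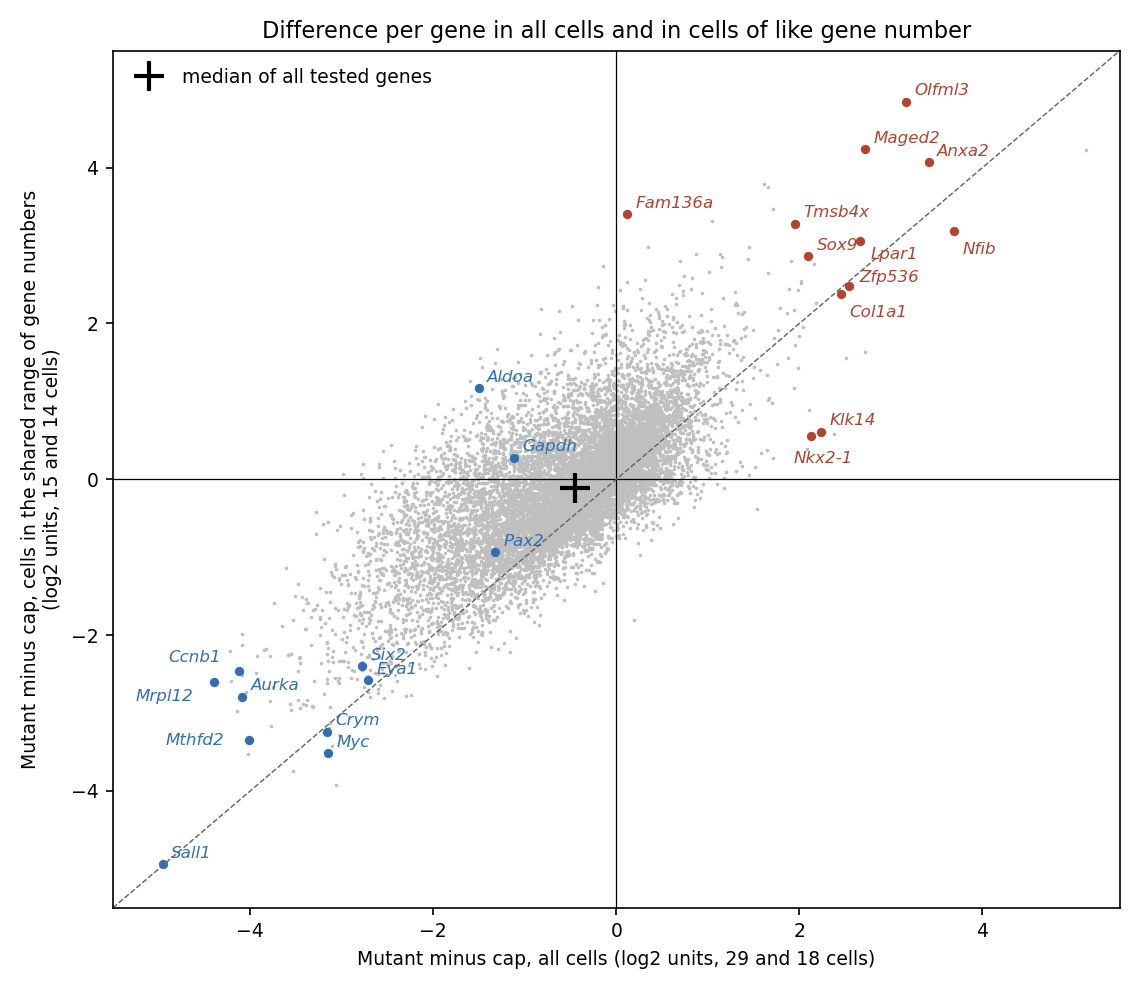
Difference in mean log2(RPKM + 1), mutant minus cap, for each of 11449 genes, in all cells (horizontal, 29 and 18 cells) against cells in the shared range of gene numbers (vertical, 15 and 14 cells). Sall1 lies on the dashed line of equal values, Olfml3 and Maged2 above it, Klk14 and Nkx2-1 well below it, and Aldoa and Gapdh change sign.

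Stromal genes were higher in part only. Of the 15 tested genes of stroma and fibroblasts, 3 were higher past 1 log2 unit and 1 lower, with a median of 0.30. Of all tested genes 1.43% were higher and 27.7% lower, with a median of -0.45. In the shared range 6 of the 15 were higher and none lower, with a median of 0.71. There 7.35% of all tested genes were higher and 12% lower, with a median of -0.11. Without cap cells 83 and 84 the count was 6 higher, with a median of 0.78. Col1a1, the main chain of type I collagen, had a median of 15.2 RPKM in mutant cells and 0.126 in cap cells, and apart from cells 83 and 84 (67.3 and 88.4 RPKM) no cap cell exceeded 1.02. It was detected in 18 of 29 and 3 of 18 cells and differed by 2.46 (2.38), and Col1a2 by 1.67 (1.04). Col3a1 was detected in 18 of 29 and 2 of 18 cells and differed by 1.72 (1.81). Its highest value, 303 RPKM, was in cap cell 84, and the log2 ratio of group mean RPKM was -0.17.

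Of the stromal markers named here, Foxd1, Meis1 and Pdgfra were not past 1 log2 unit in all cells. Fat4 (2.04), Col1a1 (2.46) and Col3a1 (1.72) were. Foxd1 reached 1 RPKM in 5 of the 29 mutant and 4 of the 18 cap cells, with a difference of 0.12 (-0.34). Its highest cap values were in cells 83 and 84, at 30.04 and 23.03 RPKM, and without them the difference was 0.61 (0.28). Meis1, a homeobox factor of stroma, was detected in 26 of 29 and 17 of 18 cells at medians of 74.998 and 95.8 RPKM and differed by -0.74 (0.20). Pdgfra, a receptor of fibroblasts, was detected in 8 of 29 and 1 of 18 cells and differed by 0.85 (0.95). Its only cap value above 1 RPKM was in cell 84, and without cells 83 and 84 it differed by 1.16 (1.34). The list of nephrogenic interstitium genes had 1 of 13 higher and 1 lower, with a median of 0.01 (0.20).

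Few matrix genes were higher by 1 log2 unit, and more were lower. The list of 15 had 1 higher and 4 lower in all cells, near the 27.7% of all genes that were lower, with 1.43% higher. In the shared range 0 were higher and 4 lower, against 7.35% and 12% of all tested genes. The list median was 0.08 (0.06). Col5a1, a fibrillar collagen, differed by 1.46 (0.96). Sparc, a collagen-binding glycoprotein, differed by -1.79 (-1.52), the basement membrane collagens Col4a1 and Col4a2 by -1.73 (-1.91) and -1.08 (-1.26), and Timp2, a metalloproteinase inhibitor, by -2.05 (-1.81). Of 6 tested mural and smooth muscle genes 2 were higher and 2 lower, also in the shared range, with a median of -0.42 (-0.31). Rgs5, a pericyte regulator of G protein signalling, was higher by 1.71 (3.47) and detected in 12 of 29 and 2 of 18 cells, and Cnn2, an actin-binding calponin, by 1.31 (2.26). Des, the muscle filament protein desmin, differed by -2.11 (-1.35), and Tpm2, a tropomyosin, by -1.54 (-2.21). Acta2, Myh11 and Ren1, which mark contractile and renin cells, were at 0 in every cell of both groups.

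Cell-cycle genes were lower as a group. All 12 genes of the G2 and M phase list were lower by 1 log2 unit or more, with a median of -3.17 against -0.45 for all tested genes. The count in the shared range was 10 of 12 lower, with a median of -1.97 against -0.11. Among all tested genes 27.7% were lower in all cells and 12% in the shared range. The number of list members detected per cell ran from 1 to 12 in mutant cells with a median of 5, and from 0 to 12 in cap cells with a median of 11.5. At least 9 were present in 10 of 29 mutant and 17 of 18 cap cells, and 3 or fewer in 12 mutant cells and 1 cap cell. The medians were 6 and 11 in the shared range. All 12 were present in 5 of 29 mutant cells and 9 of 18 cap cells, and within the shared range in 5 of 15 and 5 of 14.

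Ccnb1, the cyclin that drives entry into mitosis, had medians of 0.766 RPKM in mutant and 201 in cap cells, and differed by -4.12 (-2.46). Its highest value, 1440 RPKM, was in a mutant cell, so the groups differed in how many cells held it (12 of 29 against 17 of 18) and overlapped in its highest levels. Aurka, the Aurora kinase of the spindle poles, was detected in 7 of 29 and 15 of 18 cells and differed by -4.09 (-2.79). Ube2c, the ubiquitin-conjugating enzyme of the anaphase-promoting complex, differed by -4.09 (-2.52). Top2a, the topoisomerase that untangles chromosomes, had medians of 6.51 and 324 RPKM and differed by -3.78 (-2.84), and Mki67, the Ki-67 proliferation antigen, by -3.75 (-2.67). Plk1, Polo-like kinase 1, differed by -1.91 in all cells and by 0.06 in the shared range. Cdca3, Kif22 and Pbk, mitotic genes outside the list, were among the 12 leading negative genes at -4.21 (-2.59), -4.14 (-2.98) and -4.05 (-2.73).

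Of the 12 list members 10 were lower by 1 log2 unit or more both in all cells and in the shared range. The promoters of 4 of these are shown as examples. Each is the RefSeq window from 250 bases before to 50 after the annotated gene start (GRCm38.p6), 5′ to 3′ on the strand of the gene. Capitals mark TTTGAA, the core of the cell cycle homology region, and CCAAT, each searched on both strands, with overlapping matches joined. The windows are chr10:69352863-69353162 (minus strand) for Cdk1, chr2:164769679-164769978 (plus) for Ube2c, chr2:172370521-172370820 (minus) for Aurka and chr13:100786437-100786736 (minus) for Ccnb1.
Cdk1: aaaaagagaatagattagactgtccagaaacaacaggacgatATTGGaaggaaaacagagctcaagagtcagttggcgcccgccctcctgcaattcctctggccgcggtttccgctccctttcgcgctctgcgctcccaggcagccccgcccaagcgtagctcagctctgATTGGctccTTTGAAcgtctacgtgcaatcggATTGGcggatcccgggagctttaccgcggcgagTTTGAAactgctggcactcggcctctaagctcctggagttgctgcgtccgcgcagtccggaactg
Ube2c: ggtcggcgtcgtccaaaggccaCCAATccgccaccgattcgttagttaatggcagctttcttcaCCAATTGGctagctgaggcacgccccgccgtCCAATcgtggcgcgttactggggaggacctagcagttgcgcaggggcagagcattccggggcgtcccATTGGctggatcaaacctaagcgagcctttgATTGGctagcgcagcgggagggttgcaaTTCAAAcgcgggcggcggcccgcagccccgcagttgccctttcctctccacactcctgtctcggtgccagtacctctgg
Aurka: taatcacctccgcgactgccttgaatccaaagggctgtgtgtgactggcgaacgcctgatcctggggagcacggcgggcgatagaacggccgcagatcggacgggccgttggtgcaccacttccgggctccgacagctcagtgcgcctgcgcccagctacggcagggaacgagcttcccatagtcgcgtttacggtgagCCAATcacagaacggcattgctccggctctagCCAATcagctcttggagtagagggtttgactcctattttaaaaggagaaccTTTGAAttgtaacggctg
Ccnb1: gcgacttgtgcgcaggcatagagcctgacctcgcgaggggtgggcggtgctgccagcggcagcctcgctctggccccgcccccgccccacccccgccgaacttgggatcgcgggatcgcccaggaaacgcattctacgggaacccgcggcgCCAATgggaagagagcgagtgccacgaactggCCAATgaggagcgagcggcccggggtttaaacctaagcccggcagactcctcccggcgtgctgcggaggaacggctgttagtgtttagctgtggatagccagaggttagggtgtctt
TTTGAA stood in 8 of the 11 windows found for the list (1 member had no window) and in 17.9% of all 32851 windows. It is in the windows of Cdk1, Ube2c and Aurka above, and these letters are not in that of Ccnb1. CCAAT stood in all 11 windows, against 37.4% of all. In the 11 windows found for 10 S phase genes, TTTGAA stood in 1 and CCAAT in 9. A match of letters is a description and not a bound site.

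Genes of DNA replication were also lower, with a smaller difference in the shared range. Of 12 S phase genes 9 were lower by 1 log2 unit, with a median of -2.19, against 27.7% and -0.45 for all tested genes. In the shared range 5 were lower, with a median of -0.71, against 12% and -0.11. Rrm1 and Rrm2, subunits of the reductase that makes deoxynucleotides, differed by -3.08 (-1.25) and -2.83 (-1.10), and Gins2, part of the replicative helicase, by -2.73 (-1.71). Pcna, the sliding clamp, had -0.99 (0.50), and Tyms, thymidylate synthase, was detected in 28 of 29 and 18 of 18 cells and had -0.74 (0.11). Cyclins of the G1 phase and the inhibitor Cdkn1c did not share this. Ccnd2 was detected in 27 of 29 and 18 of 18 cells at medians of 129 and 67.4 RPKM and differed by 0.93 (1.91), Ccnd1 by 0.26 (1.23), and Cdkn1c by 0.65 (0.95). The chromatin proteins Hmgb2 and Hmga1, abundant in dividing cells, differed by -3.59 (-2.25) and -3.78 (-2.27), whereas Hmgn3 differed by 0.79 (2.09).

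Serine and one-carbon enzymes, which supply nucleotide synthesis, were lower in both sets of cells. Of 10 tested 8 were lower, with a median of -2.05, against 27.7% and -0.45 for all tested genes. In the shared range 6 were lower, with a median of -1.20, against 12% and -0.11. Mthfd2, the mitochondrial folate dehydrogenase, had medians of 0 RPKM in mutant and 107 in cap cells, was detected in 9 of 29 and 16 of 18 cells, and differed by -4.02 (-3.35). Phgdh, the first enzyme of serine synthesis, differed by -3.27 (-1.61). Myc, the growth regulator, was detected in 3 of 29 mutant cells (10.3%, 2.19 to 27.4) and 12 of 18 cap cells (66.7%, 40.99 to 86.7) and differed by -3.15 (-3.51). Genes of ribosome assembly were among the leading negative genes of the shared range, with Mybbp1a at -3.92 (-3.06 in all cells) and Fbl, fibrillarin, at -3.19 (-3.14). Nup155 of the nuclear pore was detected in 9 of 29 and 18 of 18 cells and Ncbp1 of the nuclear cap-binding complex in 10 of 29 and 18 of 18. These were 2 of the 10 genes with the widest gap in detection towards cap cells, and their differences were -2.89 (-2.45) and -3.31 (-2.92).

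Other metabolic lists were lower in all cells and differed less in the shared range. The part of gene number in this was not tested. For comparison, 27.7% of all tested genes were lower in all cells, and 12% were lower and 7.35% higher in the shared range. All 12 oxidative phosphorylation genes were lower in all cells (median -1.98), and 1 of 12 in the shared range (median -0.24). Of 13 glycolysis genes 10 were lower in all cells (median -1.44), and in the shared range none was lower and 2 were higher (median 0.24). Housekeeping genes went from 7 of 12 lower (median -1.25) to 1 of 12 (median 0.14), the exception being Hprt at -3.16 (-2.10). Gapdh differed by -1.11 (0.28) and Aldoa by -1.50 (1.17). The lists of progenitor, G2 and M phase and serine enzymes thus kept medians below -1 in the shared range, and those of energy metabolism did not.

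**Figure D3:**
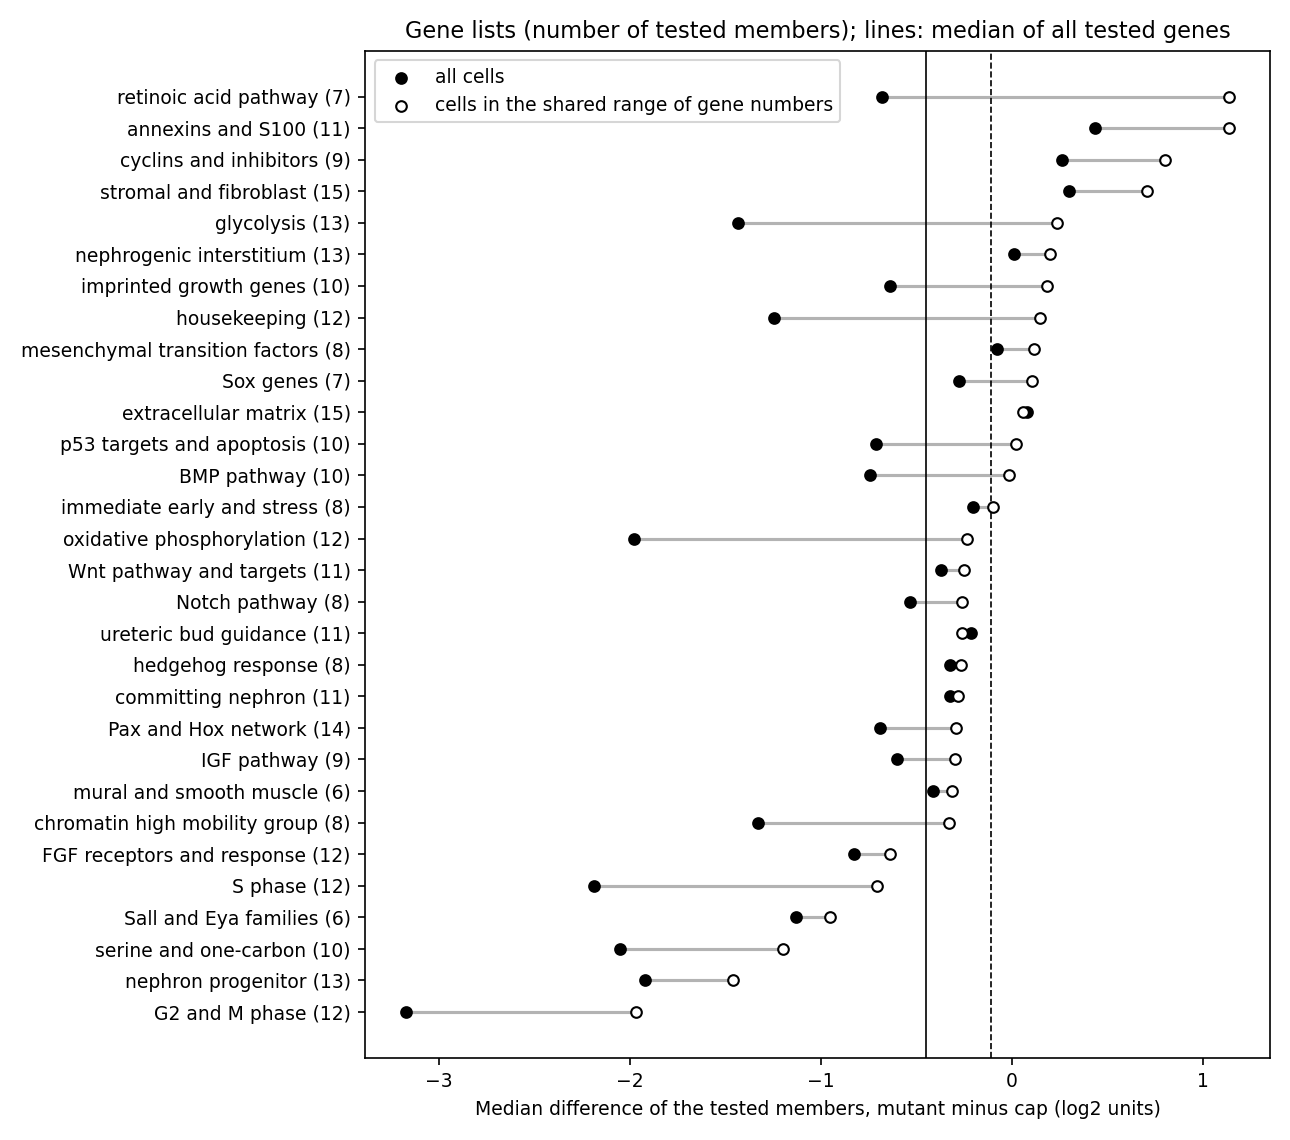
Median difference (mutant minus cap, log2 units) of the tested members of each gene list with 6 or more, in all cells (filled) and in cells of the shared range of gene numbers (open). Vertical lines are the medians of all 11449 tested genes, -0.45 (solid) and -0.11 (dashed). The G2 and M phase and nephron progenitor lists are lowest in the shared range, and oxidative phosphorylation, glycolysis and housekeeping move to near the dashed line.

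Signalling genes were mixed. FGF signalling supports progenitor survival, and of 12 tested receptor and response genes 6 were lower by 1 log2 unit and none higher, against 27.7% lower of all genes, with a median of -0.83. The shared range had 3 lower and 1 higher (median -0.64), against 12% lower and 7.35% higher of all genes. Dusp6, a phosphatase that FGF signalling induces, was detected in 9 of 29 and 15 of 18 cells and differed by -3.19 (-2.75), and Etv5 differed by -1.71 (-1.13) and Fgfr1 by -1.61 (-2.42). Etv4 and Spry2, also induced by FGF, had 0.67 (0.33) and 0.07 (1.19). Of the BMP list, the ligand Bmp7 differed by -1.95 (-0.79) and the receptor Bmpr1a by -2.33 (-1.80), while Bmp4 had 1.10 (-0.06). In retinoid metabolism, Rdh10, which makes retinaldehyde, differed by -3.00 (-2.34), Dhrs3, which reverses that step, by 2.16 (2.77), and Stra6, a retinol transporter, by 1.36 (1.53). Of the bud guidance list, Gfra1, the Gdnf co-receptor, differed by -1.06 (-0.99) and Robo2, a Slit receptor, by 0.50 (1.14). The Wnt, Notch and hedgehog lists had 2 of 11, 1 of 8 and 0 of 8 genes lower and none higher, at or below the share of all genes, with medians of -0.37, -0.53 and -0.32. Within the shared range the Wnt list had 1 higher and 1 lower, the Notch list none past 1 log2 unit and the hedgehog list 1 lower, with medians of -0.25, -0.26 and -0.27.

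Progenitor and stromal genes were found together in some cells. Pax2, Sall1 and Six2 were detected together in 1 of 29 mutant cells and 13 of 18 cap cells. Nfib without Sall1 was found in 20 of 29 mutant cells and 1 of 18 cap cells, and Sall1 without Nfib in 1 and 12. Nfib, Anxa2 and Olfml3 were found together in 15 mutant cells and 1 cap cell. Counted singly, Sall1 was in 7 mutant and 16 cap cells, Anxa2 in 25 and 6, and Olfml3 in 19 and 2. Whether the genes stood together more often than their single counts give was not tested. Pax2 and Nfib stood together in 14 of 29 mutant and 2 of 18 cap cells, where Nfib alone was in 26 and 5. Mutant cells 51 and 56, with ureteric markers, were among the 14. Pax2 and Col1a1 stood together in 7 mutant cells and 1 cap cell. Among cells of the shared range, 9 of 15 mutant cells and 1 of 14 cap cells held Nfib without Sall1, and 0 and 9 the reverse.

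Mutant cells were not uniform. Mutant cell 69 held 9 progenitor genes, Six2 at 73.8 RPKM, all 12 genes of the G2 and M phase list and Nfib at 125 RPKM. Mutant cell 76 held Six2 and Crym at 49.3 and 262 RPKM with all 12 of those genes and no detected Nfib or Anxa2. Mutant cell 73 held Sall1 at 32.7 RPKM with Col1a1, Col3a1 and Nfib, and no Pax2 or Six2. The number of the 14 progenitor genes detected per cell ran from 0 to 9 in mutant cells (median 3) and from 0 to 12 in cap cells (median 8). That of the 16 stromal genes ran from 0 to 11 (median 5) and from 2 to 13 (median 3). Top2a and Nfib were found together in 17 of 29 mutant cells, so Nfib was not restricted to cells without mitotic genes.

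**Figure D4:**
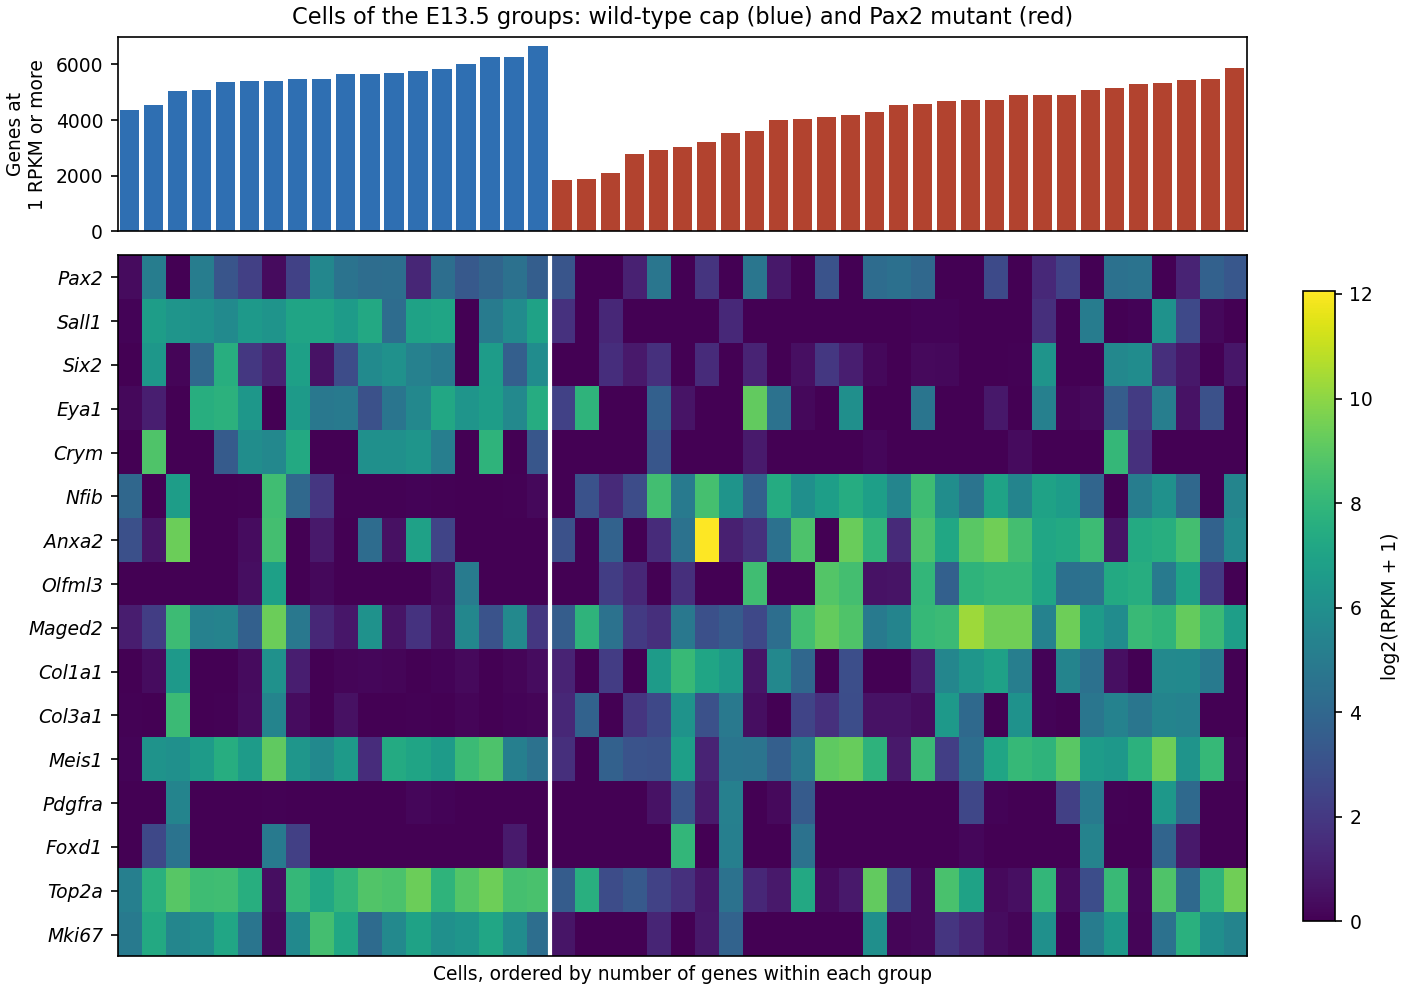
Level of 16 genes (rows, log2(RPKM + 1)) in the 18 wild-type cap and 29 Pax2 mutant cells (columns, ordered by gene number within a group), with the gene number of each cell above. Sall1 is bright across most cap cells and dark in 22 of 29 mutant cells, and Nfib the reverse, while Top2a and Mki67 are bright in scattered mutant cells.

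The first 2 principal components of the 47 cells separated these patterns. The first, with 15.95% of the variance, followed the number of detected genes (r = 0.96 over 47 cells, a description), and 10 mutant cells lay below every cap cell on it. The second, with 3.82%, did not follow it (r = -0.03). Its leading genes were Anxa2, Olfml3, Tmsb4x, Maged2 and Nfib on one side and Nusap1, Kif22, Top2a, Ube2c and Cdca3, all mitotic genes, on the other. On the side of Anxa2 lay 15 of 29 mutant and 3 of 18 cap cells.

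Markers of other cell types were sparse. Of 10 endothelial genes 1 was detected in any mutant cell and 8 in cap cells, all 8 in cell 95, and the summed level ran from 0 to 83.4 RPKM in mutant and 0 to 907 in cap cells. Of 12 ureteric genes 9 were detected in mutant and 7 in cap cells, with summed levels from 0 to 1829 and 0 to 93.7 RPKM and medians of 0.652 and 5.41. Ptprc, the leukocyte antigen, and the adult and embryonic globins of the erythroid list were at 0 in every cell. Elavl4, an RNA-binding protein known from neurons, was detected in 2 of 29 and 11 of 18 cells and differed by -2.50 (-2.07), while Sox10 was at 0. The summed level of the stromal list had a median of 345 RPKM in mutant and 157 in cap cells, cells 83 and 84 included. The part of other cell types in the differences was not tested.

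Cells labelled Pax2 mutant and wild-type cap were also profiled at E18.5, with 44 mutant and 74 cap cells of other pools, so that the comparisons share no cells. Pax2 reached 1 RPKM in 0 of 44 mutant cells and 56 of 74 cap cells at E18.5. By 1 log2 unit 4.51% of 11100 tested genes were higher in E18.5 mutant cells and 23.2% lower. All 12 leading negative genes of E13.5 were lower by 1 log2 unit at E18.5, with Sall1 at -3.41. Of the 12 leading positive genes 8 were higher, with Nfib at 4.58, Anxa2 at 2.94, Olfml3 at 5.10 and Lpar1 at 5.16, and none lower. Of the 12 leading positive genes of the shared range 7 were higher and 2 lower at E18.5, and all 12 leading negative ones were lower. The median of all tested genes at E18.5 was -0.40, and the E18.5 cells were not matched for gene number. Col1a1 differed by 6.001 at E18.5 and 2.46 at E13.5, Pdgfra by 5.64 and 0.85, and Meis1 by 4.81 and -0.74. Of 13 stromal genes tested at E18.5 12 were higher, with a median of 3.85, against 3 of 15 and 0.30 at E13.5. All 12 genes of the G2 and M phase list were lower at both ages. The difference between the ages was not tested, and pool, age and the Pax2 status of the cells cannot be told apart.

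**Figure D5:**
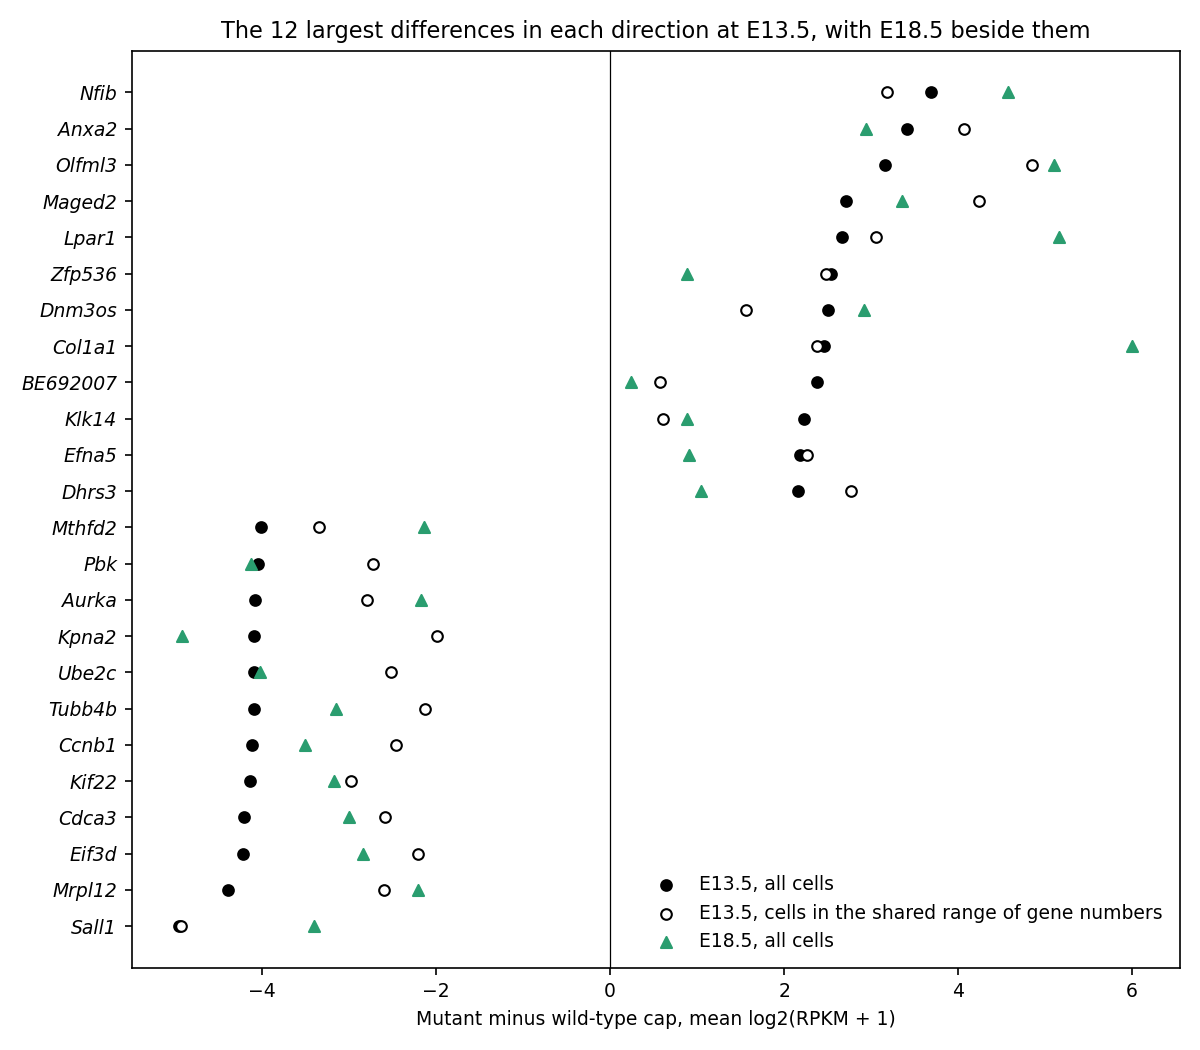
Difference in mean log2(RPKM + 1), mutant minus wild-type cap, for the 12 leading positive and 12 leading negative genes of E13.5: E13.5 in all cells (filled circles), E13.5 in the shared range of gene numbers (open circles) and E18.5 (triangles, 44 and 74 cells). All triangles of the negative genes lie below -1, and those of Zfp536, BE692007, Klk14 and Efna5 lie between 0 and 1.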

How the data were processed

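Single-cell RNA-seq of mouse kidney cells was analysed, 29 mutant and 18 wild-type E13.5 cells of 1 table of 237 cells. The deposited values are RPKM per gene, made by the authors from reads aligned with TopHat to mm10, per the submitters' processing notes. The version of TopHat and the counting rule are not given in the sources used here. The table holds no counts, so the read depth is unknown and no count test was run.

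Means were taken of log2(RPKM + 1), which understates differences of genes with low values. Of 36186 gene entries, 11449 reached 1 RPKM in 10% of the cells of either group and were tested. A difference of 1 log2 unit was used as a call. With cells of unnamed embryos each group is 1 sample, so no p-value is given, and SDs and intervals describe cells or counting error. No doublet caller was run. No 2 cells held identical values. Named genes were Pax2, the markers, list members, the 12 largest differences in each direction and the 10 largest gaps in detection in each direction, both among genes that reached 1 RPKM in 50% of cells where they were higher. Gene models, Xist, Y-linked, ribosomal, mitochondrial and haemoglobin genes were left out of that ranking. Leading genes of the shared range and of the principal components, LOC100503946 and Xist were named after their values were seen. The genes, lists and cells compared were chosen with earlier results of these data known. In 27 entries a spreadsheet date replaced the symbol, and these were not named. Some list members are not reported here. Promoter windows came from RefSeq (GRCm38.p6). Alternatives were other pseudocounts, filters and scalings and sets of cells left out. The code was tested on simulated data and used Python 3.11.15, numpy 2.4.6, pandas 2.3.3, scipy 1.17.1 and matplotlib 3.10.9.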

Additional observations from a re-analysis of the deposited data

How the results depend on the processing

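Pax2, Sall1 and Six2 were lower and Nfib and Anxa2 higher in mutant cells under all 10 alternative settings. Of the 105 other named genes under those settings, 1025 values moved by less than 1 SD, 18 moved by more and 7 changed sign. Only differences of 1 log2 unit or more were counted as changing sign. Smaller differences that did so, such as those of Meis1 and Pcna in the shared range, were counted by the size of their move. Medians and counts of the gene lists moved more often: 938 values stayed within those limits (1.5 times for counts), 246 moved and 4 changed sign. The same rule did not count smaller medians, such as that of the retinoic acid list, which went from -0.68 to 1.13 in the shared range. With a pseudocount of 0.1, Sall1 was at -7.09, the nephron progenitor median at -2.96, the serine and one-carbon median at -3.27, and 520 genes were higher and 5212 lower. With a pseudocount of 10 these values were -2.63, -0.92, -0.93, 27 and 904. Higher genes numbered 1964 by the log2 ratio of group mean RPKM, 338 without cells high in LOC100503946 and 90 with a filter at 50% of cells. In the shared range of gene numbers 842 were higher and 1370 lower. Among differences of 1 log2 unit or more, Dhrs3 (-0.52), Col3a1 (-0.17) and Igf2 (0.058) changed sign by the ratio of means. In the shared range Plk1 (0.057), Bmp4 (-0.060), Gapdh (0.28), Aldoa (1.17) and the medians of glycolysis (0.24) and housekeeping (0.14) did. Relative to genes of the same mean level, the medians of housekeeping (0.17) and high mobility group genes (0.19) did. The alternatives that leave out cells standing apart or set differences against genes of the same level were chosen after seeing the data, as was the shared range without cap cells 83 and 84. In that set Foxd1 (0.28), Bmp4 (0.31), Hoxd10 (-0.026) and Pcna (-0.085) changed sign against the shared range with those cells. The cause of these changes was not tested. No paired analysis was possible because the cells carry no embryo or replicate number shared between the groups.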

Other observations

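The single E13.5 wild-type cell of pool 4 belonged to no comparison, since its source name calls it cap and its cell type label interstitial. It held 6570 genes at 1 RPKM or more. Pax2 stood at 24.7 RPKM, Sall1 at 183, Six2 at 143 and Eya1 at 67.4, with Nfib at 0.060 and Anxa2 at 22.8. Meis1 was at 375 RPKM and Olfml3 at 70.4 in the same cell, and the mitotic gene Top2a at 364.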
